A study of Sus scrofa with 74 samples.

Results

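The transcripts that encode the proteins of the cytosolic ribosome were followed through the longissimus dorsi, a long back muscle, of 74 F2 pigs. They were found by gene symbol. A probe set, the group of short oligonucleotides that reads 1 transcript on the array, was taken when the annotation gave it a single gene and that gene was RPL or RPS with a number (with A, X or Y where the symbol has it), RPLP0, RPLP1, RPLP2 or RPSA. This gave 90 of 23999 probe sets outside the array's controls, which read 58 of the 6765 genes named by a single symbol, 34 of the large and 24 of the small subunit. After the dimmest probe sets of the array were set aside, 77 probe sets of 55 genes were left. RPL26, RPL30 and RPS15A were lost, since the only probe set of each was too dim. Another 8 probe sets list a ribosomal protein gene together with other genes and were not counted.

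The pigs were the second generation of a cross of the Duroc and Pietrain breeds, free of the RYR1 mutation that causes malignant hyperthermia, and were slaughtered at a mean weight of 110 kg. Each animal was measured once, on 1 Affymetrix Porcine Genome Array, and all belong to a single group with no treatment. The labels number the animals from 1 to 114 and leave a gap between 33 and 60, and the 24 animals below the gap and the 50 above it are called the lower and the higher block here. What separates the blocks is not stated. Family, sex and slaughter date are not in the labels, and many of the animals were full sibs, so that p-values treat as independent animals that partly are not. The labelled tissue had its markers: the probe sets of MYH2, CKM and TNNT3 had median levels of 15.87, 15.74 and 15.78 on the log2 scale.

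A ribosome is built from a small subunit, which holds the mRNA and reads its codons, and a large subunit, which joins the amino acids. Each subunit is a core of ribosomal RNA covered by proteins that are present as single copies, apart from the stalk proteins RPLP1 and RPLP2, and surplus ribosomal protein is broken down. The mRNAs of these proteins begin with a short pyrimidine tract that lets the cell turn their translation up or down together, mainly through the mTOR pathway. Ribosomal protein genes have many processed pseudogenes and near-identical copies, and the array cannot tell signal of such copies from that of the gene itself.

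The member probe sets fell into a bright and a dim class. Of the 77, 58 had a median log2 scaled intensity of 12.28 to 15.20 and 19 one of 7.30 to 10.43, with none in between. Every kept gene except RPL37 had at least 1 bright probe set, which makes 54 genes. A level of a probe set also depends on its oligonucleotides, so this gap belongs to the probe sets and does not rank the genes. The bright probe sets varied little within a block, with a median SD of 0.17 on the log2 scale, against 0.28 for the 816 other bright probe sets of the array. These others were not matched to the members for level and had a mean log2 level of 13.2 in both blocks. So a part of level in this contrast was not tested. The smallest SD within blocks was that of RPL32 (0.13), a protein of the large subunit, followed by the bright probe sets of RPLP0 and RPL24 (0.14 each). The largest SDs were those of the dim probe sets of RPLP0 (1.06), RPS27 (0.59) and RPLP1 (0.51).

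The lower and the higher block differed in the level of most ribosomal protein transcripts, and bright and dim probe sets went opposite ways. By limma with Benjamini-Hochberg adjustment over all kept probe sets, 42 of the 77 were higher in the 24 animals and 18 were lower at an adjusted p under 0.05. Over the whole array the same test called 25.4% of probe sets higher and 36.1% lower. Of the 58 bright probe sets 41 were higher, 5 were lower and 12 were not called, with a median difference of 0.18. Of the 19 dim ones 1 was higher, 13 were lower and 5 were not called, with a median of -0.70. The rest of the array, not matched to the members for level, leaned the same way by class, but less. Of the 816 other bright probe sets 33.2% were higher and 27.8% lower, with a median of 0.04. Of the 10560 other dimmer ones 24.6% were higher and 36.8% lower, with a median of -0.07. Of the 13 probe sets below the limit none was higher and 9 were lower, in a fit to all probe sets. The median difference over all kept probe sets was -0.06. Large and small subunit did alike in the bright class: 22 of 33 probe sets of the large and 19 of 25 of the small subunit were higher, with medians of 0.19 and 0.17. In muscle taken whole, fewer cells of a type and less RNA per cell cannot be told apart.

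**Figure D1:**
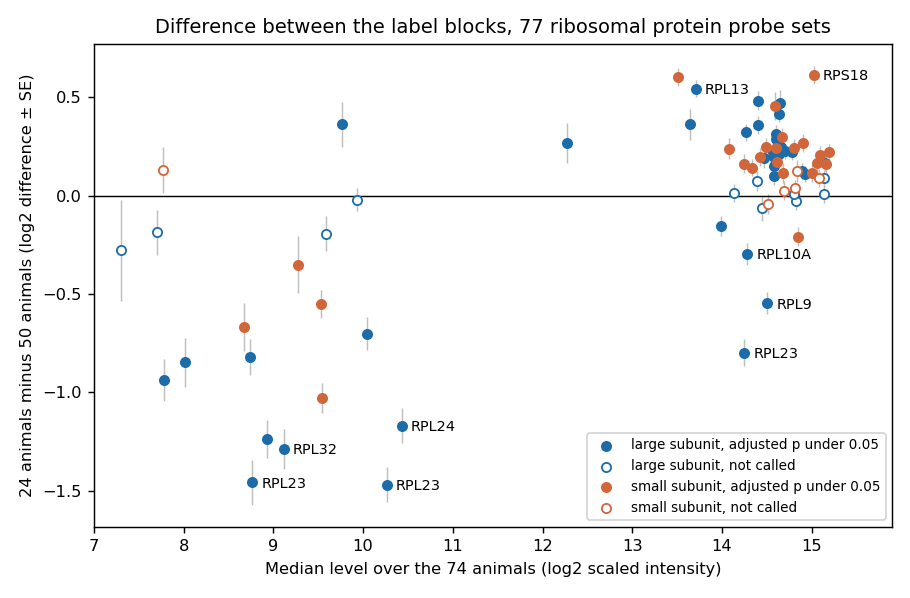
Difference between the 24 and the 50 animals (log2, ± SE from the limma fit, vertical axis) against the median level over all animals (log2 scaled intensity, horizontal axis) for the 77 kept probe sets, 1 point each, coloured by subunit and filled where the adjusted p is under 0.05. Bright probe sets lie mostly above 0 with RPL23 the lowest among them at -0.80, and dim ones mostly below.

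Among the bright probe sets the largest difference was that of RPS18, a protein of the head of the small subunit. Its brightest probe set ran from 15.15 to 16.18 in the 24 animals, with a median of 15.56, and from 14.73 to 15.29 in the 50, with a median of 14.92. The blocks overlapped only at their edges, and the difference was 0.61 ± 0.05 (SE, adjusted p = 8.4e-20). A further probe set of RPS18, which shares probes with related transcripts, gave 0.60 ± 0.05, and the last of its 3 probe sets gave 0.24 ± 0.04. So the size of the RPS18 difference depended on the probe set, and its direction did not.

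RPL13, a large subunit protein, had a level of 13.75 to 14.75 in the 24 animals (median 14.17) and of 13.34 to 13.99 in the 50 (median 13.64). All but the upper end of the higher block lay below the lower block, and the difference was 0.54 ± 0.05 (adjusted p = 8.53e-18). RPL27 came next with 0.48 ± 0.05 by 1 of its bright probe sets and 0.31 ± 0.05 by the other. RPL17, a large subunit protein near the mouth of the exit tunnel, followed with 0.47 ± 0.07 by its bright probe set.

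The bright probe sets that were lower in the 24 animals were those of RPL23, RPL9, RPL10A, RPS3A and RPL14. RPL23, which besides its place in the large subunit is known to bind MDM2 when ribosome assembly is disturbed, had levels of 12.75 to 14.08 with a median of 13.51 in the 24 animals. In the 50 animals its levels ran from 13.65 to 14.67 with a median of 14.37. The lower block was clearly below the higher one with a stretch of overlap, and the difference was -0.80 ± 0.07 (adjusted p = 3.44e-17). RPL9 had 13.47 to 14.43 (median 14.13) in the lower and 14.17 to 14.86 (median 14.64) in the higher block, a difference of -0.55 ± 0.05 (adjusted p = 3.38e-14). RPL10A differed by -0.29 ± 0.06, RPS3A by -0.21 ± 0.05 and RPL14 by -0.15 ± 0.05, with blocks that overlapped over most of their range. All 5 were lower too with quantile normalization. They were also lower on values as deposited, but there the median over all kept probe sets was -0.65, so those values cannot decide their direction. With the array level before scaling as a covariate RPL23 (-0.55) and RPL9 (-0.37) were still called, and RPL10A (-0.17), RPS3A (-0.06) and RPL14 (-0.05) were not.

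The direction of the other bright probe sets rested on the scaling of the arrays. Before scaling, the trimmed mean intensity of an array was 50.3 to 123 in the 24 animals and 84.7 to 183 in the 50. On values as deposited, with no scaling, no member was higher in the 24 animals and 71 were lower, while the median over all kept probe sets was -0.65. With quantile normalization 36 were higher and 19 lower, and the median over all kept probe sets was 0.009. With the log2 level before scaling as a covariate, an alternative added after seeing the data, 16 were higher and 21 lower. The shares of the whole array called under these settings are not given here, so these counts have no background beside them. The level before scaling moved with the block.

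Signs of RNA quality and of other cells moved with the block too. The log2 ratio of 3' to 5' control probe sets was 0.67 ± 0.08 (SD) in the 24 and 0.76 ± 0.11 in the 50 animals for actin, and -0.02 ± 0.03 and 0.03 ± 0.04 for GAPDH. With both ratios as covariates 38 members were higher and 16 lower, and the share of the whole array called in that fit is not given here. A control probe set of 28S ribosomal RNA had a mean level of 10.30 in the 24 and 12.25 in the 50 animals, and one of 18S had 7.17 and 8.47. The other 28S control had 9.80 and 11.02. The other 18S control, the brighter one, went the opposite way with 12.14 and 11.90, and so did that of 5S with 7.39 and 7.09. The mean z score of 4 smooth muscle genes was 0.59 ± 0.48 in the 24 and -0.28 ± 0.57 in the 50 animals, and 3 of the 4 probe sets were higher in the 24. The part of these measures in the block differences was not tested, apart from the fits with the ratios and the level as covariates.

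Several genes were read by more than 1 probe set, and these often disagreed. There were 24 genes with 2 or 3 probe sets, which make 40 pairs, and 24 of these pairs, of 20 genes, had both probe sets kept. With the block means removed, 15 of the 24 kept pairs had a positive r at an adjusted p under 0.05 (permutations within blocks, adjusted over these pairs) and none a negative one. Over all 40 pairs 16 were called, with a median r of 0.17. The median over the 24 kept pairs was 0.37. Between different ribosomal protein genes, with the probe sets of a gene averaged, it was 0.41. So a called r does not by itself show that 2 probe sets read the same gene. The 5 pairs of 2 bright probe sets, of RPL27, RPL31 and RPS18, were all called, with r from 0.53 to 0.92. The names of the RPL31 pair and of 1 RPS18 pair differ only in their suffix. Whether such probe sets share oligonucleotides was not looked up, so they may not be separate readings. The 18 kept pairs of a bright and a dim probe set had a median r of 0.33, and 10 of them were called.

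The highest r between probe sets of 1 gene were those of RPL31 (0.92), RPL27 (0.80), RPL17 (0.67) and of RPS18, whose pairs gave 0.67 and 0.66. The pair of RPL17 joins a bright and a dim probe set, so that a large gap in level did not keep that pair from varying together. At the other end were the pairs of dim probe sets of RPL9 (-0.17) and RPS25 (-0.17), the bright and dim probe sets of RPL35 (-0.09), a bright and a dim one of RPL9 (-0.09) and those of RPS27 (-0.06). None of these 5 was called, and 3 of the 5 hold a probe set that was not kept.

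In 8 genes the bright probe set was higher in the 24 animals and a kept dim one was lower, both called: RPL6, RPL13A, RPL17, RPL24, RPL32, RPS27, RPS27A and RPS28. RPL32 shows the pattern. Its bright probe set had levels of 14.33 to 15.20 (median 14.73) in the 24 and of 14.20 to 14.81 (median 14.52) in the 50 animals, a difference of 0.20 ± 0.04 (adjusted p = 7.6e-06). Its dim probe set had levels of 7.48 to 8.82 (median 8.03) in the 24 and of 7.96 to 10.04 (median 9.40) in the 50, a difference of -1.29 ± 0.10 (adjusted p = 4.12e-19). The bright levels overlapped widely and the dim ones only in part, although r between both within blocks was 0.38.

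RPL24, a late-joining protein of the large subunit, did the same, with 0.22 ± 0.04 by its bright and -1.17 ± 0.09 by its dim probe set. RPL6 differed by 0.10 ± 0.05 and by -1.24 ± 0.10. In RPL23, by contrast, all probe sets were lower in the 24 animals, at -0.80, -1.47 and -1.46. The dim probe set of RPL23 at -1.47 ± 0.09 had levels of 7.83 to 9.50 in the 24 animals and of 9.66 to 11.03 in the 50, and was the only 1 of the 77 whose blocks did not overlap, which 0.733% of all kept probe sets showed in that direction.

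**Figure D2:**
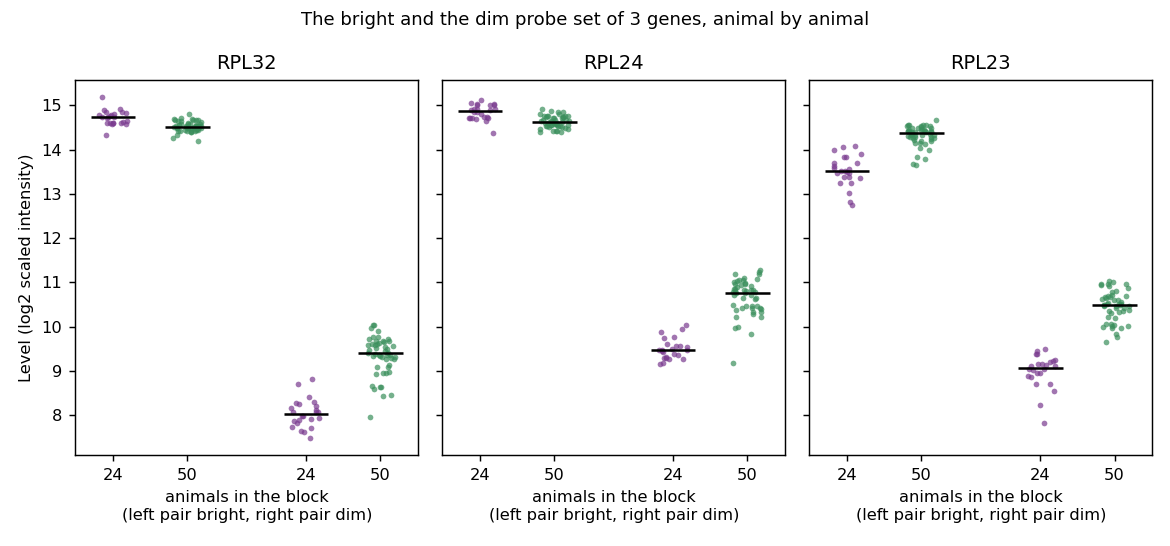
Level (log2 scaled intensity) of a bright and a dim probe set of RPL32, RPL24 and RPL23 in every animal, 1 point each, with the 24 animals of the lower block in purple, the 50 of the higher block in green and the block median as a bar. In RPL32 and RPL24 the bright probe set was higher and the dim one lower in the 24 animals, and in RPL23 both were lower.

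The 8 pairs whose names differ only in the letter A or S, which the array maker uses for the orientation of the source sequence, are those of RPL6, RPL12, RPL13A, RPL17, RPL23, RPL24, RPL32 and RPS6. In each of these pairs 1 probe set was bright and 1 dim, the dim one was lower in the 24 animals, and r within the pair ran from 0.22 to 0.67, with 7 of 8 called. The bright probe set had the letter A in 5 of the genes (RPL6, RPL12, RPL13A, RPL17 and RPL32) and the letter S in 3 (RPL23, RPL24 and RPS6), so neither letter marked the dim class. The strand that each probe set reads was not looked up.

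Within a block, the animals with more of 1 ribosomal protein transcript also had more of most others. Each probe set was correlated with the mean z score of the other ribosomal protein genes, its own gene left out and the block means removed, and tested by permutations within blocks with adjustment over all kept probe sets. Of the 77 probe sets 58 were called with a positive r and none with a negative one, at a median r of 0.61. Over all kept probe sets 2.99% were called positive and 1.53% negative, with a median r of -0.02. By subunit, 34 of 47 probe sets of the large and 24 of 30 of the small subunit were called. By class, 53 of 58 bright and 5 of 19 dim ones were called, with medians of 0.66 and 0.06. Of the 816 other bright probe sets, not matched to the members for level, 19.6% were called positive, with a median r of 0.12.

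These counts depended on the scaling. With quantile normalization 44 of the 77 were called, at a median r of 0.35, where 7.61% of all kept probe sets were called positive. Bright calls then fell from 53 to 38. RPS13, RPS28 and RPL21, with r of 0.55, 0.59 and 0.67 by their bright probe sets, came to -0.13, -0.14 and -0.03. On values as deposited 75 were called at a median of 0.87, but so were 79.3% of all kept probe sets.

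The median r of the bright members was 0.83 over the 24 animals and 0.61 over the 50, and that of the dim members was 0.17 and 0.18. The difference between these medians was not tested. The 2 animals farthest from the median of the score both belong to the 24, and without them 56 of the 77 probe sets were called. Spearman's rho called 60. Of the 77 slopes on the score, 10 differed between the blocks by an interaction term (limma, adjusted p under 0.05), where 9.14% of all kept probe sets did, and 7 of the 10 were flatter in the 24 animals.

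The probe sets that followed the rest most closely were those of RPL35 (r = 0.92, rho = 0.86), RPL24 (r = 0.90, rho = 0.89), RPS10 (r = 0.90, rho = 0.88), RPL13A (r = 0.89, rho = 0.84) and RPL32 (r = 0.86, rho = 0.80), each with an adjusted p of 0.000784, the smallest reached. RPL35 sits at the exit of the peptide tunnel and RPS10 at the entry of the mRNA. The level of RPL35 ran from 14.24 to 15.42 with a median of 14.63, and r was 0.96 in the 24 animals, 0.86 in the 50 and 0.89 without the 2 farthest animals. That of RPS10 ran from 14.40 to 15.59 with a median of 14.81, with r of 0.93, 0.86 and 0.88 in the same order. With all probe sets of a gene averaged, RPL29 (0.84), RPL15 (0.82) and RPL24 (0.82) led the large and RPS10 (0.90), RPS19 (0.84) and RPS2 (0.83) the small subunit.

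At the other end, RPL23, RPL37 and RPL3 of the large subunit had gene averages with r of 0.01, 0.03 and 0.07. RPL3, which lines the site where the peptide bond is made, was read by a single bright probe set at 11.64 to 13.64 with a median of 12.28, and its r was 0.21 in the 24 and -0.16 in the 50 animals. RPL37 was read only by a dim probe set. In the small subunit the lowest were RPS27A, which is made as a fusion with ubiquitin, with 0.23, RPS3A with 0.33 and RPS25 with 0.36. The bright probe sets of RPS27A (0.40) and RPS25 (0.53) alone were called, and that of RPS3A (0.33, adjusted p = 0.0807) was not. The other bright probe sets that were not called were those of RPL23 (0.15), RPL9 (0.29), RPL4 (0.20) and RPL3.

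**Figure D3:**
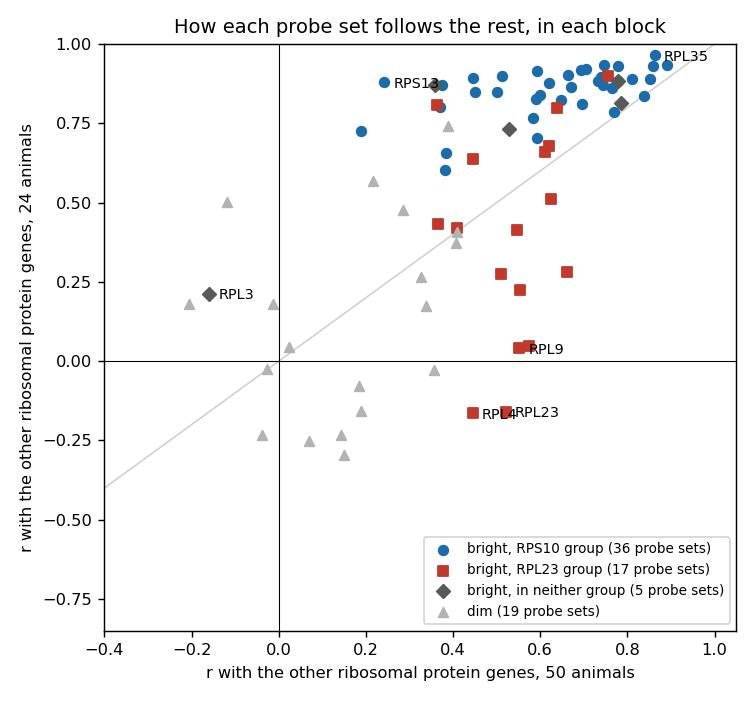
Pearson's r of each kept probe set with the other ribosomal protein genes in the 24 animals (vertical axis) against that in the 50 animals (horizontal axis), 1 point per probe set (blue circles, bright and of the RPS10 group; red squares, bright and of the RPL23 group; dark diamonds, bright and in neither; grey triangles, dim), with the diagonal in grey. Most bright probe sets lie in the upper right with RPL35 at 0.96 and 0.86, while RPL23, RPL4 and RPL9 have r of -0.16, -0.16 and 0.04 in the 24 animals and of 0.52, 0.44 and 0.55 in the 50.

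Pairs within a subunit were hardly closer than pairs across subunits. The median r over pairs of genes, block means removed, was 0.41 for the 496 pairs of the large subunit, 0.48 for the 253 of the small subunit and 0.40 for the 736 between them, with SEs of 0.04, 0.05 and 0.04 from leaving out each animal in turn. The median over all pairs of the 4752 genes with a kept probe set was 0.0063, and over the 58 genes of the mitochondrial ribosome, a separate particle that translates the mitochondrial genome, it was 0.16. In the 24 animals the 3 medians were 0.46, 0.55 and 0.49, and in the 50 they were 0.37, 0.36 and 0.33. The small subunit thus had the highest median in the 24 animals and not in the 50. With quantile normalization the 3 medians fell to 0.20, 0.17 and 0.16, and on values as deposited they were 0.75, 0.76 and 0.76.

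A finer division than the subunits appeared among the bright probe sets. The brightest probe set of each of the 54 genes was clustered on r over the 50 animals alone, by average linkage and cut at 3 clusters, a number chosen after seeing the data. RPL3 stood alone. A cluster of 36 genes, called the RPS10 group here, holds 18 genes of each subunit. A cluster of 17, called the RPL23 group, holds 12 of the large (RPL4, RPL5, RPL6, RPL9, RPL10A, RPL12, RPL14, RPL17, RPL22, RPL23, RPL32 and RPL34) and 5 of the small subunit (RPS3A, RPS6, RPS24, RPS25 and RPS27A). RPL5, which carries the 5S ribosomal RNA, and RPS6, the protein that the S6 kinases phosphorylate, are both in the RPL23 group. In the 50 animals, which made the groups, the median r was 0.52 within the RPS10 group, 0.78 within the RPL23 group and 0.18 between them.

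The 24 animals had no part in making the groups. There the median r was 0.84 within the RPS10 group, 0.49 within the RPL23 group and 0.26 between them. All 36 genes of the RPS10 group had a higher mean r with their own group than with the other, and 13 of the 17 of the RPL23 group did. The 4 that did not were RPL6, RPL12, RPL17 and RPL32, of which RPL32 had a mean r of 0.86 with the RPS10 group and of 0.18 with its own. Without the 2 farthest animals the values in the other 22 were 0.75, 0.40 and 0.26. The groups had like levels, with medians of 14.74 and 14.51 over their genes.

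**Figure D4:**
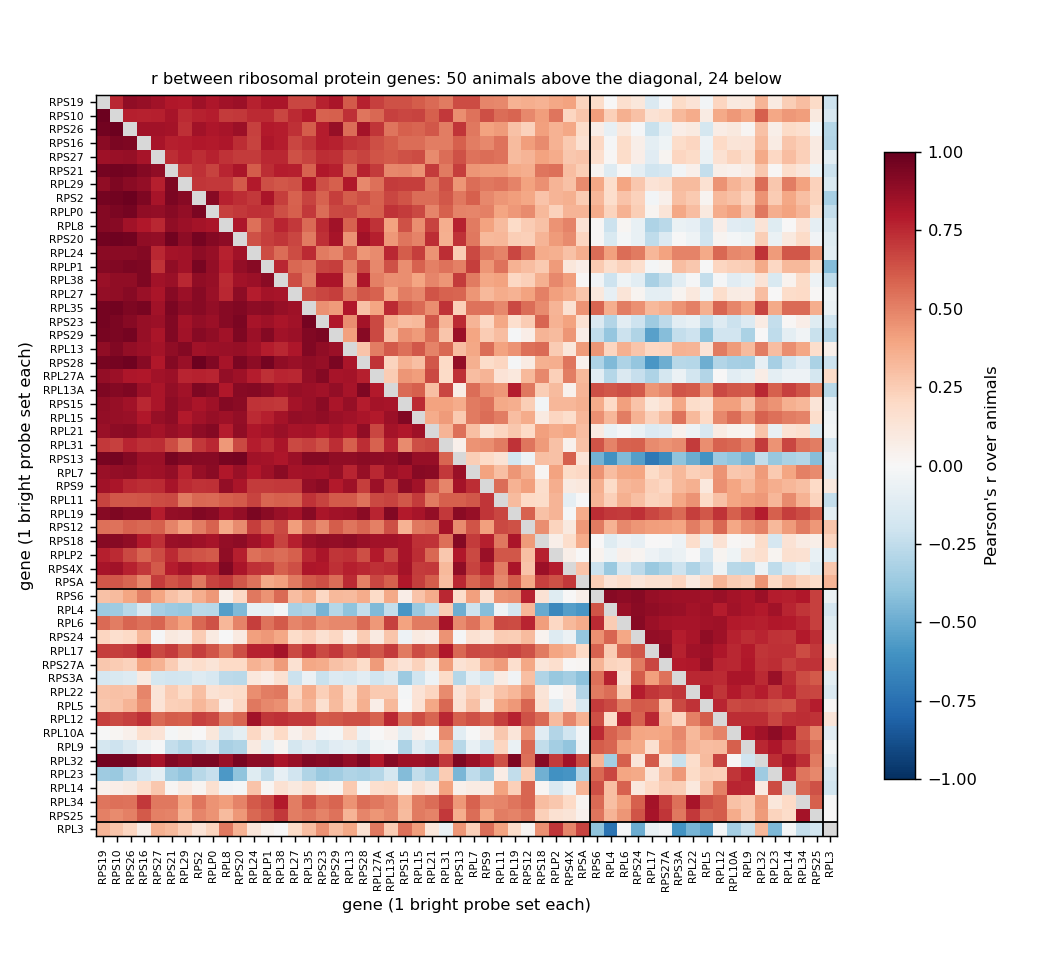
Pearson's r between the brightest probe sets of 54 ribosomal protein genes, over the 50 animals above the diagonal and over the 24 animals below it, with lines around the RPS10 group, the RPL23 group and RPL3. The colour bar runs from -1 to 1. The RPS10 block is darkest below the diagonal (median 0.84) and the RPL23 block above it (median 0.78). Below the diagonal RPL32 lies with the RPS10 group, with a mean r of 0.86.

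The difference between the blocks was also counted in each group. In the RPS10 group 28 of the 36 genes were higher in the 24 animals, none was lower and 8 were not called, with a median difference of 0.21. In the RPL23 group 8 of the 17 were higher, 5 lower and 4 not called, with a median of 0.03. Over all kept probe sets 25.4% were higher and 36.1% lower, and of the 816 other bright ones 33.2% and 27.8%. The 5 bright probe sets that were lower are thus all in the RPL23 group, and so is RPL17 at 0.47 and RPS24 at 0.45, so that group has the widest range, from -0.80 to 0.47. This contrast rested on the scaling. With the array level before scaling as a covariate, 5 genes of the RPS10 group were higher and 8 lower, against 8 higher and 2 lower in the RPL23 group. On values as deposited none was higher, and 34 of the RPS10 and 15 of the RPL23 group were lower. With quantile normalization 26 were higher and 2 lower in the RPS10 group, and 5 were higher and 5 lower in the RPL23 group.

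The level of the array before scaling moved with the RPS10 group. Its mean z score had r = -0.82 (rho = -0.72) with the log2 level before scaling in the 24 animals and -0.60 (rho = -0.48) in the 50, and -0.61 and -0.47 without the 2 arrays of the most extreme level in each block. The RPL23 group had -0.15 in the 24 and 0.45 in the 50. Single genes of the RPS10 group had a median r with that level of -0.73 and -0.49 in the 24 and the 50 animals. The 816 other bright probe sets, not matched to these genes for their own level, had -0.18 and -0.12. The mean z score of the skeletal muscle genes had r = 0.88 and 0.66 with the RPS10 group and 0.41 and -0.28 with the RPL23 group. The log2 ratios of 3' to 5' probe sets of the actin and GAPDH controls, a sign of RNA integrity, had r of -0.06 and 0.01 with the RPS10 group in the 24 animals and of 0.03 and -0.10 in the 50. With the RPL23 group they had r of 0.37 and 0.28 in the 24 and of 0.25 and 0.10 in the 50.

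Other measures of the array also moved with the RPL23 group. In the 24 animals its mean z score had r = 0.52 with a control probe set of 18S ribosomal RNA, 0.50 with the erythroid marker score, -0.56 with the leukocyte and -0.57 with the endothelial marker score. In the 50 animals these were 0.15, -0.04, -0.08 and -0.12, while a control probe set of 28S ribosomal RNA had r = 0.62, against 0.34 in the 24. The other control probe sets of 28S, 18S and 5S ribosomal RNA had r of -0.35, -0.35 and -0.46 in the 50 animals. In the 24 they had 0.20, -0.11 and 0.08. So controls of the same ribosomal RNA differed in sign in the 50 animals. The part of these measures in the groups was not tested.

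**Figure D5:**
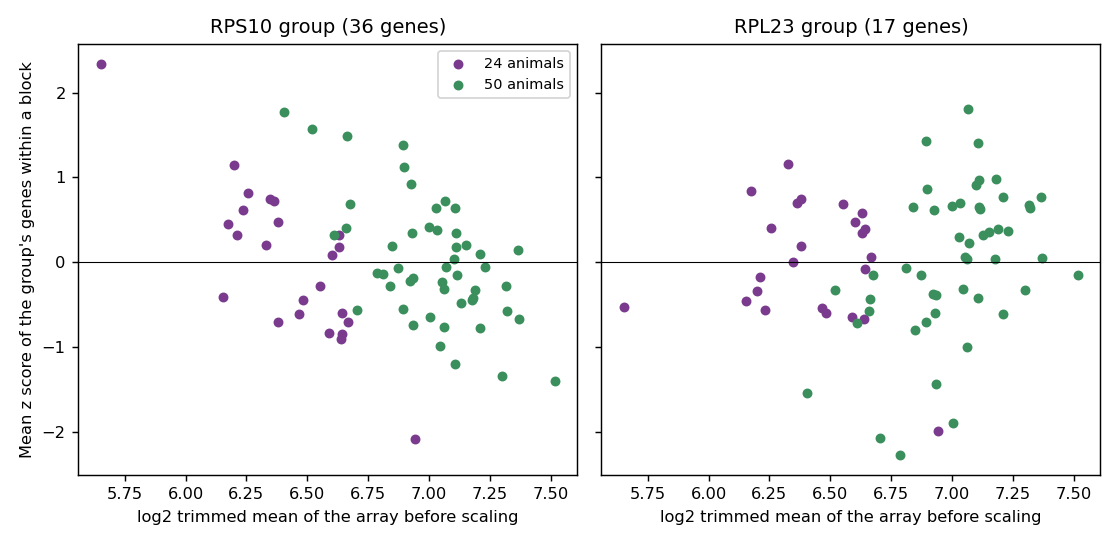
Mean z score within a block of the 36 genes of the RPS10 group (left) and of the 17 genes of the RPL23 group (right) against the log2 trimmed mean of the array before scaling, 1 point per animal, the 24 animals in purple and the 50 in green. The RPS10 group falls as the level rises in both blocks (r = -0.82 and -0.60), and the RPL23 group has r of -0.15 and 0.45.

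How close the groups were, and how far apart, varied with the scaling. With quantile normalization the median r of the RPS10 group fell from 0.84 to 0.26 in the 24 animals and from 0.52 to 0.16 in the 50, while that of the RPL23 group was 0.53 and 0.71. With the level before scaling removed, the medians were 0.64 and 0.47 within the RPS10 group and 0.52 and 0.76 within the RPL23 group. Between the groups r rose to 0.28 and 0.45. So in the 50 animals, which made the groups, pairs between them were then nearly as close as pairs within the RPS10 group. The r between the mean z scores of the groups rose from 0.25 to 0.69 in the 50 animals. In the 24 animals it rose from 0.40 to 0.50. With the mean of the other bright probe sets removed the medians were 0.85 and 0.47 within the RPS10 group, 0.41 and 0.76 within the RPL23 group and 0.14 and 0.10 between them. On values as deposited the medians were 0.76 and 0.82 within the RPS10 group, 0.85 and 0.93 within the RPL23 group and 0.61 and 0.83 between them, so that in the 50 animals pairs between the groups were as close as pairs within the RPS10 group. Apart from values as deposited, the lowest median r of the RPL23 group under these alternatives was 0.41. Without the 2 farthest animals it was 0.40 in the other 22. The RPS10 group fell below both with quantile normalization. Values as deposited cannot bear on this, since there 79.3% of all kept probe sets were called positive with the score.

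Among probe sets of single genes outside the rule, the 10 with the highest r with the score were those of LOC100525692 (0.89), EEF1B2 (0.85), SSR4 (0.78), FAU (0.77), B2M (0.77), ZC3H10 (0.76), RACK1 (0.75), BTF3 (0.73), RAN (0.73) and EEF1D (0.72). EEF1B2 and EEF1D are subunits of the factor that reloads elongation factor 1 with GTP, RACK1 is a scaffold bound to the small subunit, FAU encodes the small subunit protein eS30 as a fusion, and BTF3 binds nascent chains. B2M belongs to the surface complex that presents peptides and RAN to nuclear transport. The lowest r were those of PLEKHB2 (-0.55), CNOT6L (-0.55), AKAP13 (-0.51), GMPS (-0.50) and CLTC (-0.49).

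RACK1, FAU and EEF1B2 went with the RPS10 group. RACK1 had r = 0.98 and 0.84 with that group in the 24 and the 50 animals and 0.25 and -0.17 with the RPL23 group. The muscle genes TPM2 and PGAM2 were also among the 12 probe sets nearest to the RPS10 group, at 0.93 and 0.75 and at 0.84 and 0.71. Nearest to the RPL23 group were B2M (0.79 and 0.82), PCMT1 (0.69 and 0.75), ZFAND6 (0.69 and 0.69) and RPS27L (0.69 and 0.79), a paralog of RPS27 that lies outside the rule. B2M also followed the RPS10 group, with r of 0.69 and 0.48. RPS27L had r of -0.04 and -0.13 with the RPS10 group, which holds RPS27 itself.

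Other genes of translation and of ribosome assembly were followed by lists. Of 9 probe sets of elongation factors 4 had a called positive r with the score, with EEF1G (0.71) after EEF1B2 and EEF1D, and the median was 0.23. Of 43 probe sets of initiation factors 7 were called positive, among them EIF3K (0.71), EIF4B (0.67) and EIF1 (0.51), and 1, EIF5B (-0.39), was called negative, at a median of 0.01. Ribosome-associated proteins and other mRNAs with a pyrimidine tract had 5 positive and 1 negative, NAP1L1 (-0.39), of 18. Ribosome biogenesis, the making of ribosomes in the nucleolus, had 2 of 40, NHP2 (0.51) and UTP14A (0.38), and RNA polymerase I with the signals to it 1 of 19, POLR1D (0.42). Over all kept probe sets 2.99% were called positive, and for lists of this size both counts were not far from that share.

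The ribosomal protein paralogs outside the rule (RPL7L1, RPL22L1, RPL26L1, RPL36AL and RPS27L) had none called of 5, with r from -0.13 to 0.21. The mitochondrial ribosome had 2 called of 69, MRPL52 (0.52) and MRPS26 (0.48), at a median r of 0.10, although 33 of the 69 were higher and 16 lower in the 24 animals. Of the reference genes 7 of 22 probe sets were called, led by B2M. Skeletal muscle genes had 8 of 12, with MYH2 at 0.56, CKM at 0.53 and TNNT3 at 0.52. The lists of markers of adipocytes, leukocytes, fibroblasts, endothelium, erythroid cells, satellite cells and smooth muscle had none called in 6, 5, 5, 8, 3, 3 and 4 probe sets. Over all kept probe sets 2.99% were called positive, so empty counts in lists this small say little about those cells. The count of the mitochondrial list was near that share.

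RPL32 and HPRT1 served as internal standards of the real-time PCR in this study. The bright probe set of RPL32 followed the score (r = 0.86) with an SD within blocks of 0.13. Between blocks it differed by 0.20 ± 0.04 (limma, adjusted p = 7.6e-06), and the dim probe set of RPL32 by -1.29 ± 0.10. HPRT1, an enzyme of purine salvage, had levels of 8.76 to 10.27 with a median of 9.57, an SD within blocks of 0.28, a difference between blocks of -0.19 ± 0.07 (adjusted p = 0.0179) and r = -0.26 (adjusted p = 0.247). FAU had 3 kept probe sets, of which the brightest followed the score and was higher in the 24 animals by 0.41 ± 0.04, while the others had r of -0.14 and -0.04 and differed by -0.35 ± 0.10 (adjusted p = 0.002) and by 0.07 ± 0.06 (adjusted p = 0.28).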

How the data were processed

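Total RNA of muscle taken at slaughter was labelled with biotin and hybridised to 74 Affymetrix Porcine Genome Arrays, 1 per animal. The authors used GCOS 1.1.1 (also in the submitters' notes) with global scaling, and PLIER for the transcripts called present. The deposited intensity values are linear, and the algorithm behind them was not given in the sources used here. Before scaling, the trimmed mean of an array was 50.3 to 183, so each array was scaled here to a trimmed mean of 500 (2% left out at each end), set to at least 1 and put on the log2 scale. The 11453 probe sets with the highest median were kept, the number the study analysed. Precision is limited by the number of arrays.

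Differences between label blocks and of slopes were fitted with limma 3.58.1 in R 4.3.3. Correlations, block means removed, were tested with 100000 two-sided permutations of animals within blocks (Python 3.11.15, numpy 2.4.6, scipy 1.17.1). P-values were adjusted by Benjamini-Hochberg over all kept probe sets, or over the pairs, and called under 0.05. Scripts were tested on simulated data. The limit of log2 12 for bright probe sets lies in a gap found in the data. Members and gene lists were chosen with earlier results of these data known. Named members were those at the ends of r, block difference, SD and pair r, genes whose probe sets disagreed, RPL32 with HPRT1 and FAU. Named other genes were those at the ends of r, overall and in each list. Genes singled out beyond that were chosen after their values were seen. Alternatives were other scalings, offsets, filters, covariates and subsets of animals or probe sets. No promoter, protein or probe sequence was used here.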

Additional observations from a re-analysis of the deposited data

Results flagged for a closer look

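Slopes on the score of the other ribosomal protein genes differed between the blocks in 10 of the 77 kept probe sets, all bright. The interaction term was called at an adjusted p under 0.05 (limma), as it was for 9.14% of all kept probe sets. The count of members was thus not far above the share over the array. The values are slopes in the 24 minus slopes in the 50 animals, in log2 per SD of the score. Flatter in the 24 animals were RPL23 (-0.213 ± 0.060, SE), RPL4 (-0.201 ± 0.055), RPS24 (-0.180 ± 0.060), RPL10A (-0.154 ± 0.046), RPL9 (-0.142 ± 0.048), RPS3A (-0.139 ± 0.041) and RPL14 (-0.129 ± 0.042), all of the RPL23 group. Steeper in the 24 animals were RPS13 (0.155 ± 0.043), RPS4X (0.117 ± 0.039) and RPS23 (0.101 ± 0.027), all of the RPS10 group. RPS13 rose by 0.19 per SD in the 24 and by 0.04 in the 50 animals, and RPL23 had slopes of -0.06 and 0.16. The groups were made from r in the 50 animals. Neither the flatter slopes of the RPL23 group nor the steeper ones of the RPS10 group are therefore independent of that choice.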

How the results depend on the processing

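On values as deposited, 0 members were called higher and 71 lower in the lower block, and with the level before scaling removed (added after seeing the data) 16 were higher. With no block removed 2 members had a negative r and 9 of the pairs that read the same gene were called. The median r of pairs in the large subunit, the small subunit and between them was 0.752, 0.756 and 0.762 on values as deposited, 0.196, 0.165 and 0.160 with quantile normalization, 0.318, 0.402 and 0.324 with no filter on dim probe sets, and 0.461, 0.528 and 0.476 with the brightest probe set of each gene. With no block removed it was 0.304 in the large subunit and 0.357 between, and with the level removed 0.454 between. On values as deposited the block difference turned to -0.484 for RPL6, -0.469 for RPS27A, -0.103 for RPL27, -0.390 for RPS27, -0.475 for RPL13A, -0.117 for RPL17, -0.390 for RPL32, -0.042 for RPL13, -0.362 for RPL24 and -0.419 for RPS28. With the level removed it turned to -0.065 for RPS27, -0.033 for RPL13A, -0.232 for RPS28 and 0.110 for the dim probe set of RPS27. The r with the score turned, on values as deposited, to 0.396 for RPL23, 0.737 for RPL35, 0.620 for RPL9, 0.603 for RPS27A and 0.566 for RPS25, each by a dim probe set. Among the named members it turned to -0.127 for RPS13 with quantile normalization, where the bright probe sets of RPS28 (-0.142) and RPL21 (-0.027) turned too, and with no block removed to -0.160, -0.359 and -0.113 for the dim probe sets of RPL32, RPL23 and RPL24. With the 3' to 5' ratios as covariates 24 of 27 named block differences stayed on their side of the threshold and 3 no longer passed it. The cause was not tested. No paired analysis was possible because all animals belong to 1 group.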
